A study of Saccharomyces cerevisiae with 15 samples.

Results

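The positions described here are the nucleotides of the 4 transcribed spacers of the yeast 35S rRNA gene at which the transcript reads G, so that an RNA polymerase I (Pol I) halted there had G as its last incorporated nucleotide. They were chosen by base and coordinate alone: base G in the deposited tables, at positions 1 to 700 (the external spacer ETS1), 2501 to 2861 (the internal spacer ITS1), 3020 to 3251 (ITS2) or 6648 to 6858 (the external spacer ETS2), counted from the 5′ end of the gene. The rule gave 345 of the 1504 spacer positions and of the 6858 positions in the tables. ETS1 held 176 of them (25.1% of its positions), ITS1 73 (20.2%), ITS2 53 (22.8%) and ETS2 43 (20.4%). The base given in the tables matched the minus strand of the R64 genome at all 6858 positions, so the label G was borne out.

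Pol I occupancy was measured by native elongating transcript sequencing (NET-seq) in wild-type budding yeast (Saccharomyces cerevisiae) grown at 30 °C, with 15 libraries in 5 groups of 3. In every group Pol I was immunoprecipitated from cells broken while frozen (through an HA tag on its subunit Rpa135, in the methods given for the untreated libraries), and a linker with a unique molecular identifier (UMI) was joined to the 3′ ends of the copurified RNA. The base at the 3′ end of an RNA is therefore also the base joined to the linker, in all groups alike. It is the last incorporated base only where that end was not cut or processed, and this was not tested. The untreated lysates received no cation and no incubation. CaCl2 lysates received 5 mM CaCl2 for 2 minutes at 37 °C, and CaCl2 + MNase lysates also 100 U/µL of micrococcal nuclease (MNase). MnCl2 lysates received 10 mM MnCl2 for 20 minutes on ice, and MnCl2 + DNase I lysates also 100 U/mL of DNase I. EDTA to 5 mM ended all 4 treatments, followed on ice by 30 more minutes in the groups with MnCl2. Since no lysate was incubated without a cation, a cation and the incubation it came with cannot be told apart. Each group is 1 strain; per the study's methods each replicate of the untreated group was its own culture, while for the treated groups the labels give only a replicate number, so p-values there measure the spread between libraries, which may be technical.

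Pol I is the polymerase that makes the long precursor of the large ribosomal RNAs, and the spacers are the parts of that precursor that are cut out and degraded as ribosomes mature. An elongating polymerase adds a nucleotide, moves forward and repeats, and it dwells longer at some sequences than at others. A position with many 3′ ends of growing transcripts is thus one where polymerases were often found. MNase depends on calcium and digests DNA and RNA, whereas DNase I cuts DNA with the help of divalent cations.

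The sequences around the G positions to which the results return are given first. Those of the first set were chosen because each follows another G, as do 8 of the 12 G positions that were highest in untreated libraries. Each is RNA, 5′ to 3′, from the deposited bases, with the last incorporated G of the named position in capitals and the R64 coordinates of the printed stretch (minus strand of RDN37-2).
position 336, ETS1, chrXII:467222-467246: uucaaacuugggGgaaugccuuguu
position 437, ETS1, chrXII:467121-467145: ugaaacaccgggGuaucuguuuggu
position 496, ETS1, chrXII:467062-467086: gguauggugacgGagugcgcugguc
position 165, ETS1, chrXII:467393-467417: uaauugacauggGuugaugcguauu
position 2617, ITS1, chrXII:464941-464965: cuuaagugcgcgGucuugcuaggcu
position 2659, ITS1, chrXII:464899-464923: cuauuccaaacgGugagagauuucu
position 3150, ITS2, chrXII:464408-464432: aaugcaaguacgGucguuuuagguu
position 6669, ETS2, chrXII:460889-460913: cuuucuaaguggGuacuggcaggag
The second set holds 3 of the 12 G positions that were highest with MnCl2, and the only G just behind a mature rRNA end. Most of those 12 followed A or U, and 3 followed a G.
position 107, ETS1, chrXII:467451-467475: acgguggagagaGucgcuaggugau
position 2737, ITS1, chrXII:464821-464845: uuucauaucuuuGcaacuuuuucuu
position 3044, ITS2, chrXII:464514-464538: uucuguuugguaGugagugauacuc
position 2503, ITS1, chrXII:465055-465079: aggaucauuaaaGaaauuuaauaau

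Values are CPM, in which the 35S reads of a library up to the terminator T1 sum to 1000000, so a lower CPM at a position and more reads elsewhere in the gene cannot be told apart. The 15 libraries held between 2835830 and 13244360 recovered 35S reads. Spacer reads were 1.06% to 7.09% of them, with the MnCl2 groups lowest. G positions outside the 10 positions after each mature rRNA end (end stretches) held 91589 to 124705 reads per untreated library and 24964 to 185372 per library with CaCl2, but only 2189 to 4596 with MnCl2. In MnCl2 and MnCl2 + DNase I libraries the median G position had 4 to 8 reads, and 63 and 84 of the 345 G positions had 3 or fewer reads in all 3 libraries, against 2 in untreated libraries. End stretches held 62.1% to 69.2% of spacer signal in the 6 libraries with MnCl2 and 5.07% to 22.8% in the other 9, and the part of processed rRNA in those reads was not tested. Only 1 of the 345 G positions, 2503, lies in an end stretch, which leaves 344 G among 1474 spacer positions (23.3%).

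CaCl2 replicate 3 and CaCl2 + MNase replicates 1 and 3 stood apart from CaCl2 replicates 1 and 2 and CaCl2 + MNase replicate 2 in the ranks of the bases, most of all A and U. When every spacer position was ranked from 0 to 100 among the positions of its own spacer in its library, the mean percentile of positions ending in A was 42.4 to 43.8 in the first 3 libraries and 52.0 to 52.8 in the second 3, and that of positions ending in U was 52.3 to 52.8 against 45.2 to 46.9. For G the percentiles were 56.6, 58.0 and 57.1 in the first 3 libraries, above the 53.9, 55.01 and 55.5 of the second 3. Its part in the results on G was examined only by leaving out each library in turn.

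In untreated libraries, G positions held more of the spacer signal than their number would give. Outside the end stretches they took 27.6%, 27.3% and 27.7% of the signal in the 3 libraries, a mean of 27.5% ± 0.18 (SD, n = 3), and made up 23.3% of the positions. The excess was largest in ETS1, where G took 30.7% ± 0.30 of the signal at 25.1% of positions. In ITS1 the share was 22.5% ± 0.15 at 20.5% of positions, and in ITS2 it was 24.1% ± 0.39 at 23.9%, so that in these spacers G positions were occupied closer to their proportion. In ETS2, G took 13.4% ± 0.75 of the signal at 21.4% of positions, below its proportion in each untreated library (12.8% to 14.2%). By rank, which a few high positions cannot set, the mean percentile of G was 55.1 ± 0.91, that of A 60.7, that of C 45.0 and that of U 39.5. A positions thus ranked above G positions in each untreated library (60.2 to 61.0 against 54.2 to 56.0).

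The G share was higher with CaCl2 and lower with MnCl2 than in untreated libraries. With CaCl2 the libraries held 30.4%, 32.7% and 28.9% of spacer signal outside the end stretches at G, and with CaCl2 + MNase 31.0%, 32.7% and 31.9%, so all 6 lay above the 3 untreated libraries. With MnCl2 the values were 15.8%, 17.3% and 18.4%, and with MnCl2 + DNase I 17.7%, 17.5% and 17.6%, all below both the untreated libraries and the share of positions that are G. The mix of spacers differed as well. ETS1, the spacer richest in G signal, made up 65.3% ± 0.43 of the spacer signal in untreated libraries and 30.8% ± 3.23 with MnCl2. When the 4 spacers were given their untreated weights, the G share was 22.1% ± 1.30 with MnCl2 and 22.8% ± 0.66 with MnCl2 + DNase I, still below the 27.5% of untreated libraries, and 31.5% ± 1.37 with CaCl2 and 33.4% ± 0.91 with CaCl2 + MNase. These shares are scores over the chosen positions, so they are given without a test.

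**Figure D1:**
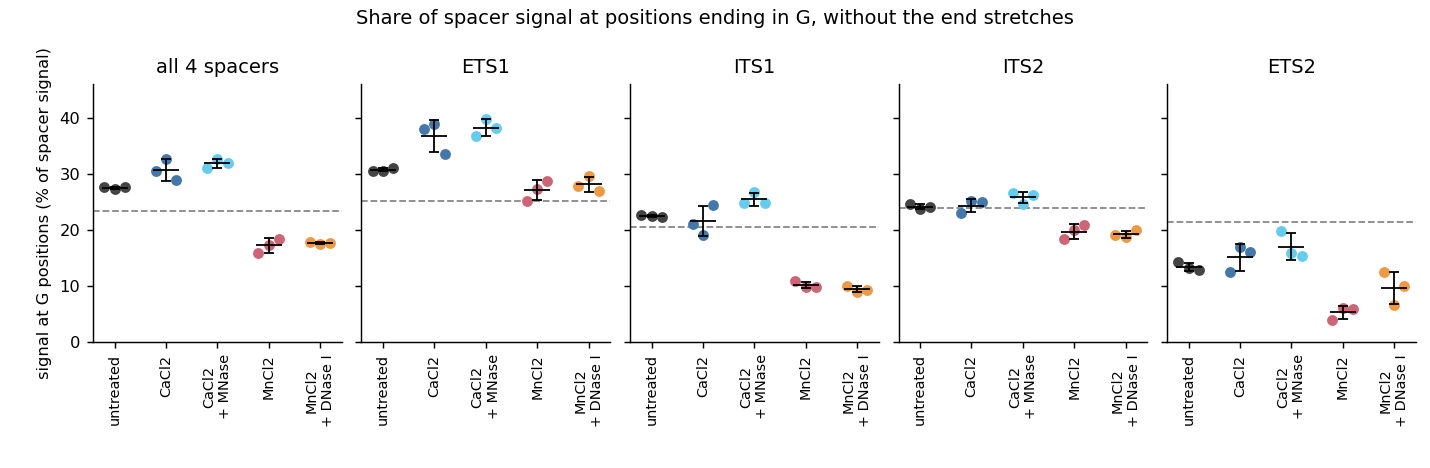
Share of spacer signal at positions ending in G (y axis, % of the signal of all positions of that spacer, end stretches left out) in each of the 15 libraries, for the 4 spacers together and each alone. Points are libraries, bars are the mean ± SD (n = 3), and the dashed line is the share of positions that are G. In ETS1 the CaCl2 libraries sit between 33.6% and 38.9%, above the untreated ones near 30.7%, and in ITS1 the 6 libraries with MnCl2 lie between 8.91% and 10.8%, below the others.

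Within each spacer the pattern differed. In ETS1 the G share was 30.7% ± 0.30 in untreated libraries and 36.8% ± 2.85 with CaCl2 and 38.2% ± 1.48 with CaCl2 + MNase, with no overlap, and was 27.1% ± 1.80 with MnCl2 and 28.1% ± 1.33 with MnCl2 + DNase I, again without overlap. In ITS1 it was 21.5% ± 2.71 with CaCl2, overlapping the untreated 22.3% to 22.6%, whereas the 3 libraries with CaCl2 + MNase, at 24.8% to 26.7%, all lay above these. In the groups with MnCl2 it was 10.1% ± 0.54 and 9.38% ± 0.54. In ITS2 it was 24.1% in untreated libraries, 24.3% ± 1.15 with CaCl2 and 19.7% ± 1.29 with MnCl2. CaCl2 + MNase libraries had 24.61% to 26.6% there, just above the untreated 23.8% to 24.56%. In ETS2 the G share was 12.4% to 16.9% with CaCl2, overlapping the untreated libraries, and 15.3% to 19.8% with CaCl2 + MNase, above them. It was 5.28% ± 1.14 with MnCl2 and 9.62% ± 2.91 with MnCl2 + DNase I, both below every untreated library.

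By rank, G with CaCl2 overlapped untreated libraries (53.9 to 56.6 against 54.2 to 56.0), and G was 55.5 to 58.0 with CaCl2 + MNase. It lay at 49.0 to 50.8 in all 6 libraries with MnCl2, below the other 9, at the middle of the scale. A and U moved more: A went from 60.7 in untreated libraries to 48.9 with CaCl2 (52.1, 52.0 and 42.7) and 53.0 with MnCl2. U went from 39.5 to 48.6 with CaCl2 (46.9, 45.9 and 52.8) and 49.0 with MnCl2. C moved less than G with MnCl2, from 45.0 to 46.9. At the depth of the MnCl2 libraries many positions tie at a few reads, and the effect of this on ranks was not tested.

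Among the 37 highest spacer positions outside the end stretches (the top 2.5%), 11, 11 and 12 ended in G in the untreated libraries, 12, 14 and 14 with CaCl2, and 14, 12 and 12 with CaCl2 + MNase. With MnCl2 the numbers were 4, 5 and 5, and with MnCl2 + DNase I 4, 6 and 5. The G positions among them also changed in kind: 9 in each untreated library followed another G, and 7 to 10 in the libraries with CaCl2 did, but 0 or 1 in each library with MnCl2.

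In untreated libraries the rank of a G differed with the base before it. The 79 G positions that follow a G had a mean percentile of 74.1 ± 0.54 (SD, n = 3), whereas those after C (47 positions) had 54.1, those after U (108) 49.0 and those after A (110) 47.8. The 79 positions are 5.36% of the spacer positions and took 12.8% ± 0.50 of the spacer signal, while the other 265 G positions (17.98% of positions) took 14.7% ± 0.65. Later G of a run ranked higher: the mean percentile was 46.9 for a lone G, 58.1 for the first G of a run, 71.2 for the second and 83.5 for the third or later G (19 positions). By the base after it, the mean percentile was 64.5 before G and 62.7 before U, against 46.4 before A and 45.5 before C. Neighbouring positions of a run share their sequence and are not independent of each other.

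A preceding G went with a high rank for other last bases too, A above all. A after G had a mean percentile of 77.5 in untreated libraries, above G after G, and C after G and U after G had 54.8 and 54.7, above C and U after each other base. The difference was smaller for U in front of the G: the 75 G positions with 4 or more U among the 8 bases before them had a mean percentile of 52.1, and the other 269 had 55.9.

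With CaCl2 the G after a G had a mean percentile of 71.8 ± 0.72 and 14.5% ± 1.92 of the spacer signal, and with CaCl2 + MNase it had 71.6 ± 0.12 and 14.9% ± 0.97. A after G, by contrast, went to 61.9 ± 5.09 with CaCl2. With MnCl2 the G after G went to 61.0 ± 3.30 and to 4.92% ± 0.60 of the signal, less than its share of positions, and with MnCl2 + DNase I to 64.05 ± 0.51 and 5.47% ± 0.09. G after another base held 14.7% of the signal in untreated libraries and 12.3% ± 0.71 and 12.2% ± 0.20 in the groups with MnCl2, a smaller drop. The G after G outranked the other G in every library all the same, by 23.1 to 26.7 percentile points in untreated libraries, 20.8 to 22.8 with CaCl2, 17.9 to 20.8 with CaCl2 + MNase, 10.7 to 16.5 with MnCl2 and 17.0 to 18.9 with MnCl2 + DNase I. This lead held in ETS1, ITS2 and ETS2 in all 15 libraries. In ITS1 it was 9.18 to 13.6 points in untreated libraries. With CaCl2 it was 11.8, 10.7 and 0.21 there in replicates 1 to 3, and with CaCl2 + MNase -2.15, 7.72 and -0.99. The low values were those of CaCl2 replicate 3 and CaCl2 + MNase replicates 1 and 3, which stood apart in the ranks of the bases.

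**Figure D2:**
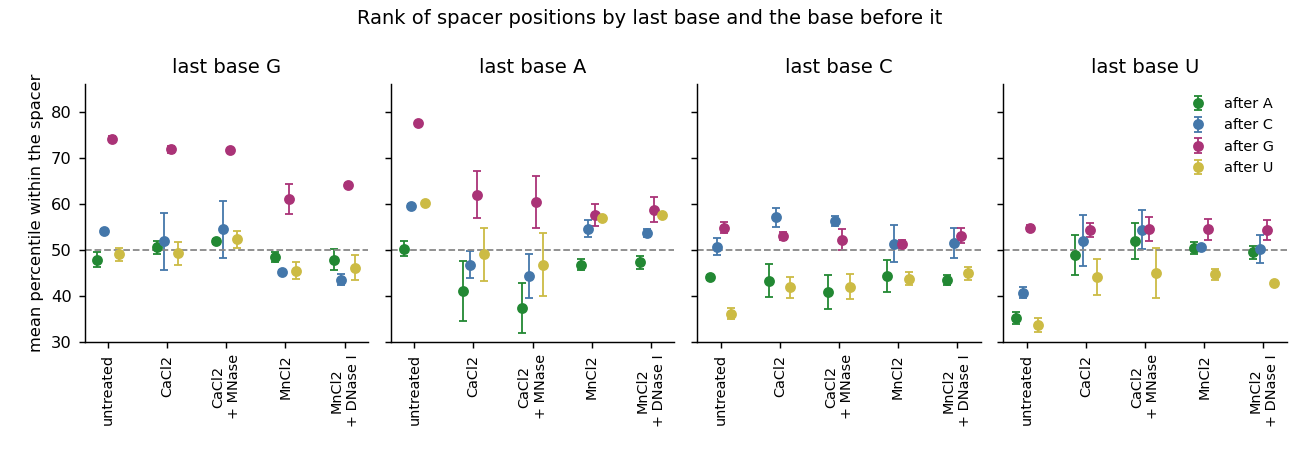
Mean percentile of spacer positions within their own spacer (y axis, 0 to 100, end stretches left out) by the last incorporated base (panels) and the base before it (colours), in each of the 5 groups. Points are the mean over 3 libraries, error bars are ± SD, and the dashed line is the middle of the scale. G after G stands at 74.1 in untreated libraries and 61.0 with MnCl2, while G after the other bases stays between 43.5 and 54.4 in all groups.

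The raised signal around a G after G was narrow. In untreated libraries the mean percentile around a G after G was 51.3 at 3 nucleotides upstream, 64.5 at the position before, 74.1 at the G itself and 76.5 at the position after it, and was back at 53.5 at 3 nucleotides downstream. With MnCl2 the 6 upstream positions lay between 48.9 and 56.3 (52.6 at the position before) and the downstream side stayed raised, at 64.01 at the next position, 61.8 at 3 nucleotides and 60.4 at 4. Around G after another base, the highest point in untreated libraries was the next position downstream (63.0), and with MnCl2 it was 54.0.

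**Figure D3:**
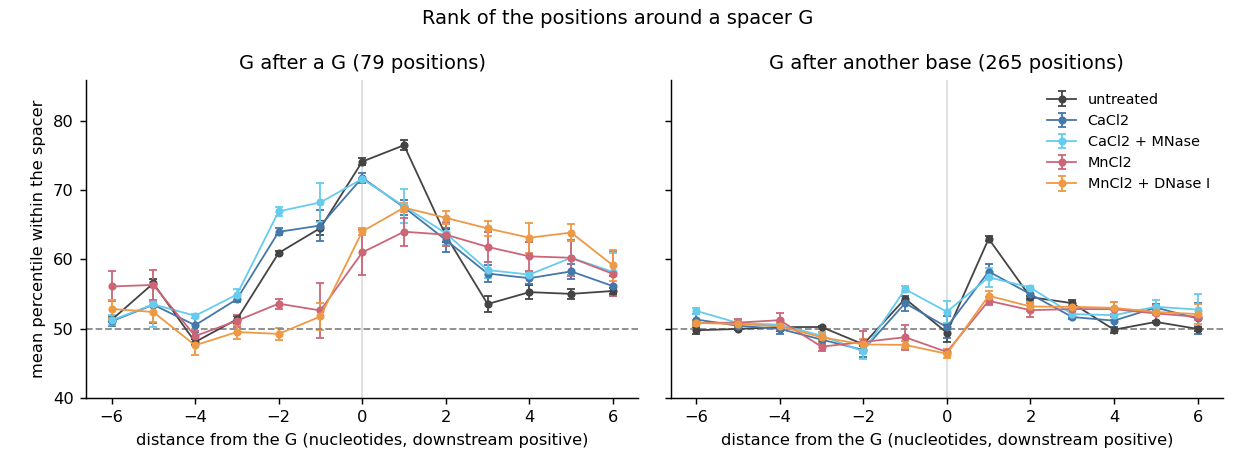
Mean percentile within the spacer (y axis) of the positions up to 6 nucleotides on either side of a spacer G (x axis, nucleotides, downstream positive), for the 79 G after a G and the 265 G after another base. Points are the mean over 3 libraries of a group and error bars are ± SD. In untreated libraries the peak at G after G covers the G and the position after it (74.1 and 76.5), and with MnCl2 the curve is 61.0 at the G and still 60.4 at 4 nucleotides downstream.

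At single positions the highest G of the untreated libraries were taken, 3 in each spacer, and 8 of these 12 follow a G. Position 336, the fourth base of a run of 5 G in ETS1, was the highest, with 795, 623 and 830 CPM. Position 437, the last of 4 G in ETS1, had 733, 675 and 608 CPM, and position 496 had 457, 456 and 514 CPM. In ITS1, position 2659 led with 454, 436 and 381 CPM, followed by 2617 (215, 238 and 161 CPM) and 2768 (131 ± 8.83 CPM). All of these ITS1 positions follow a G, whereas in ITS2 only the leading one does: position 3150 had 403, 346 and 289 CPM, 3198 had 182 ± 3.12 and 3114 had 127 ± 19.1. ETS2 was lower, with 59.4 ± 9.75 CPM at 6704, 44.6 ± 2.64 at 6669 and 34.5 ± 3.24 at 6684. The 3 named positions together held 4.48% of the ETS1 signal outside the end stretches in untreated libraries, 6.99% of that of ITS1, 8.25% of ITS2 and 3.82% of ETS2.

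**Figure D4:**
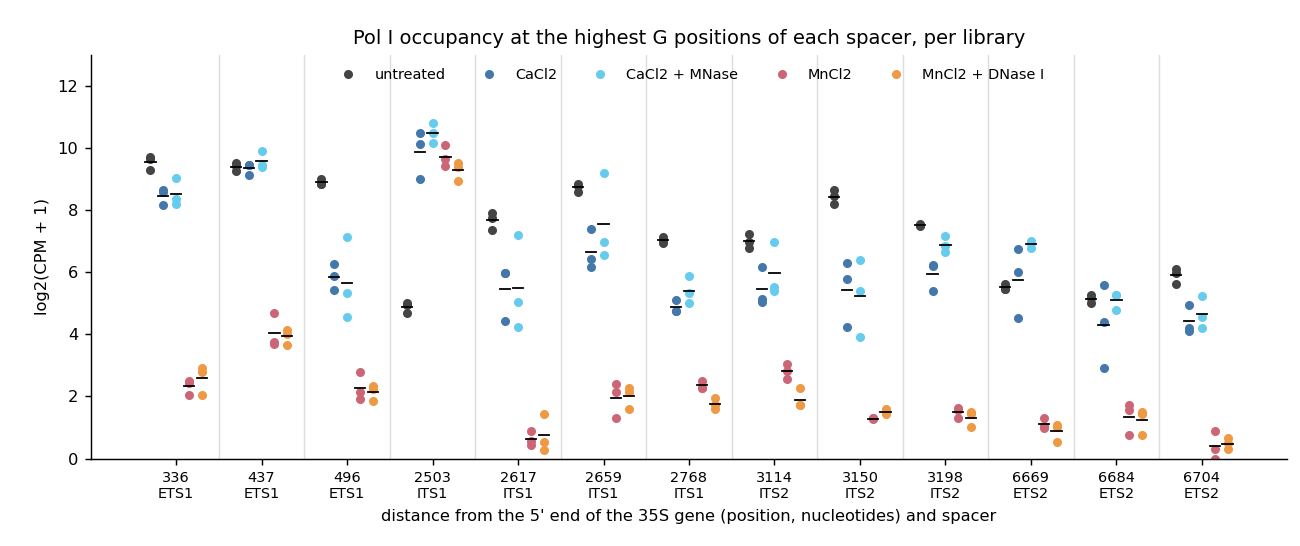
NET-seq signal, as log2(CPM + 1) (y axis), of the 3 highest G positions of each spacer in untreated libraries and of position 2503 (x axis), in all 15 libraries. At 2503, in an end stretch, the part of processed rRNA in the signal was not tested. Points are libraries and bars are group means (n = 3). Position 437 stays near its untreated level with CaCl2 (562, 697 and 691 CPM), 496 is lower there (76.1, 57.7 and 41.9 CPM), all 12 are lowest in the groups with MnCl2, and 2503 is higher in every treated group.

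With CaCl2 these positions parted. Since they were chosen as the highest in the same untreated libraries, the choice favours falls, and its part was not tested. Position 437 had 562, 697 and 691 CPM, overlapping the untreated libraries (log2 change of -0.05 ± 0.15 SE, limma adjusted p = 0.8205). Position 336 had 395, 383 and 285 CPM, without overlap (log2 change -1.08 ± 0.18, limma adjusted p = 0.00375), a call that was lost after dividing the CPM of a library by its spacer sum outside the end stretches (limma adjusted p = 0.829). Position 496 had 76.1, 57.7 and 41.9 CPM, 8.13-fold lower in the mean (log2 change -3.04 ± 0.21, limma adjusted p = 0.000118). The G 2 nucleotides further on, position 498 (chosen after its values were seen, as the second highest ETS1 G with CaCl2), went the other way, from 97.7, 82.9 and 86.2 CPM to 307, 415 and 510 CPM (log2 change 2.17 ± 0.19, limma adjusted p = 0.000243). Position 498 is the second g of the gag that starts at the printed capital of position 496.

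Positions 163 and 165, the first and the last of 3 G in ETS1, also differed in direction. Position 163 was named for its fall with MnCl2 and with MnCl2 + DNase I against untreated libraries. Position 165 was named for its fall with MnCl2 against CaCl2. These choices favour a high untreated level at 163 and a high CaCl2 level at 165. Position 163 went from 453, 410 and 402 CPM to 153, 145 and 42.7 CPM with CaCl2 (log2 change -2.09 ± 0.43, limma adjusted p = 0.00891). Position 165 had 213, 203 and 221 CPM in untreated libraries and 259, 330 and 427 CPM with CaCl2 (log2 change 0.64 ± 0.18, limma adjusted p = 0.0286, called under 9 of 14 alternatives). With CaCl2 + MNase position 165 had 373, 338 and 1029 CPM. Not every run did this: in the run of 4 G in ITS1, position 2768, the second, went from 131 ± 8.83 to 28.5 ± 4.29 CPM (log2 change -2.17 ± 0.18), and position 2770, the last, from 78.8 ± 8.88 to 14.2 ± 7.17 CPM (-2.49 ± 0.33), and both falls were called by limma. Position 2770 was likewise chosen after its values were seen.

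Named positions fell with CaCl2 in the other spacers too. They were chosen as the highest in the untreated libraries with which they are compared, a choice that favours falls. Position 2659 had 166, 85.0 and 70.8 CPM (log2 change -2.07 ± 0.28, limma adjusted p = 0.00179) and position 2617 had 62.1, 61.3 and 20.5 CPM (-2.21 ± 0.40, adjusted p = 0.00522), both without overlap. With CaCl2 + MNase, position 2659 had 92.1, 578 and 123 CPM, and replicate 2 alone made it overlap the untreated libraries (limma adjusted p = 0.116). Replicate 2 is the library of that group that sided with CaCl2 replicates 1 and 2 in the ranks of the bases. The part of this split was not tested. Position 3150 had 54.1, 77.9 and 17.9 CPM with CaCl2 (-2.98 ± 0.46, limma adjusted p = 0.00279). Position 6669, which lies in the ETS2 stretch that the tables mark as cleaved by Rnt1 (an RNase III that cuts the precursor behind 25S), had 62.8, 22.2 and 106 CPM with CaCl2, on both sides of its untreated level. With CaCl2 + MNase it had 128, 110 and 121 CPM, above each untreated library (log2 change 1.40 ± 0.12, limma adjusted p = 0.000115).

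The falls called with CaCl2 that were largest, by rule, were at positions 110 and 115 in ETS1. Position 110 had 107, 59.0 and 86.2 CPM in untreated libraries and 3.14, 5.45 and 6.05 CPM with CaCl2 (log2 change -3.85 ± 0.32, limma adjusted p = 0.000209). Position 115, the second G of a pair, had 356, 299 and 365 CPM and then 33.8, 39.3 and 28.8 CPM (-3.29 ± 0.16, limma adjusted p = 4.49e-05). With CaCl2 + MNase the largest falls were at position 115 (15.6, 37.3 and 41.5 CPM) and position 63, a lone G (90.6, 83.9 and 83.4 CPM in untreated libraries, then 4.12, 9.95 and 8.24 CPM).

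Apart from position 2503, the largest rises with CaCl2 lay behind T1, the terminator at position 6739, and started from low levels. Position 6759, in the site where the tables place binding of the termination factors Reb1 and Nsi1, had 4.79, 4.54 and 7.32 CPM in untreated libraries and 24.4, 19.6 and 81.0 CPM with CaCl2 (log2 change 2.44 ± 0.51, limma adjusted p = 0.0095). With CaCl2 + MNase it had 84.5, 36.0 and 33.1 CPM. Positions 6799, 6801 and 6805 had 0.20 to 2.03 CPM (1 to 10 reads) in untreated libraries and 2.79 to 32.8 CPM with CaCl2. Of the 21 G positions behind T1, 7 were called higher with CaCl2 and 0 lower (median log2 change 0.88), and 12 and 0 with CaCl2 + MNase (1.22), where 16.1% and 32.2% of all positions of the gene were called higher. Of the 98 positions of the other bases behind T1, 20 were called higher with CaCl2 (median 0.72) and 48 with CaCl2 + MNase (0.89). With MnCl2, 18 of the 21 G and 67 of 94 tested positions of the other bases were called lower and 0 higher (44.2% of all positions were lower). For the 15 G positions of the Rnt1 stretch the counts with CaCl2 were 0 higher and 2 lower, against 0 and 6 of 20 for the other bases there (16.3% of all positions were lower). Their mean percentile in ETS2 was 87.1 in untreated libraries and 79.4 with CaCl2.

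All 4 treated groups were compared with the same 3 untreated libraries, so these comparisons share their controls. Over all G positions, with CaCl2, 13 of 344 tested were called higher and 126 lower at a limma adjusted p-value under 0.05, with a median log2 change of -0.78 (log2 of CPM + 1, where the added 1 shrinks changes of low positions). Over the whole gene 32.3% of 6845 positions were called (16.1% higher, 16.3% lower; median 0.07). Among the 1152 tested spacer positions of the other bases, 39 were higher and 423 lower (3.39% and 36.7%, against 3.78% and 36.6% for G; median -0.69), so these shares were close for G and the other bases together. The bases differed among themselves: 57.3% of A positions were called lower, 36.6% of G, 32.6% of C and 21.0% of U. The count for G was 85 to 96 when any untreated library was left out and 238 without CaCl2 replicate 3, one of the libraries that stood apart. The shares over all positions are not given for these fits, so the counts say nothing particular to G. With CaCl2 + MNase, 49 of 343 G positions were called higher and 140 lower (median -0.41), where 54.7% of all 6843 positions were called (32.2% higher, 22.5% lower) and the other spacer bases had 175 higher and 475 lower of 1151 (median -0.44).

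With MnCl2 nearly every G position was lower. Of 343 tested, 335 were called lower and 1 higher (position 2503), with a median log2 change of -3.10, and over the whole gene 72.9% of 6840 positions were called (28.6% higher, 44.2% lower; median -0.19). The other spacer bases had 1065 lower and 15 higher of 1148, with a median of -2.59. With MnCl2 + DNase I, 339 of 343 G positions were lower and 1 higher (median -3.27), where 75.7% of all 6833 positions were called (27.5% higher, 48.2% lower), and the other bases had a median of -2.73. The median with positions of 0 reads set at the limit of 3 reads was the same for MnCl2 (-3.10) and -3.26 for MnCl2 + DNase I. By context, the median with MnCl2 was -4.05 for G after G (all 79 called lower), -3.15 after C, -2.78 after U and -2.74 after A. Among the spacers ETS1 fell furthest (median -3.90), followed by ITS1 with -2.68, ITS2 with -2.27 and ETS2 with -2.19, although rescaling to the spacer sum turned the medians of ITS1 (0.31) and ITS2 (0.95). In untreated libraries G after G had a mean of 103 to 108 CPM, against 48.9 to 54.1 CPM for all G. A higher start allows a larger fall, and the part of the starting level in the order of contexts and spacers was not tested. In the 2 comparisons of CaCl2 libraries, edgeR on the recovered reads called 128 G positions without MNase (31.8% of all positions) and 190 with it (54.6%). For MnCl2 libraries it called 336 G positions without DNase I (73.1% of all positions) and 338 with it (76.1%).

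Because the spacers as a whole held less of the 35S signal in treated libraries, each library was also rescaled to its own spacer sum outside the end stretches. This moved the median log2 change over all positions of the gene from 0.07 to 0.99 with CaCl2, from 0.11 to 0.70 with CaCl2 + MNase, from -0.19 to 3.51 with MnCl2 and from -0.24 to 3.72 with MnCl2 + DNase I. For G positions the calls became 88 higher and 73 lower with CaCl2 (68.3% of all positions called, 63.6% higher and 4.79% lower; G median 0.09) and 109 and 81 with CaCl2 + MNase (76.9% called, 68.6% higher and 8.23% lower; 0.14). With MnCl2 they became 87 higher and 137 lower (92% called, 85.1% higher and 6.84% lower; G median -0.38), and with MnCl2 + DNase I 88 and 140 (92.5% called, 85.2% higher and 7.26% lower; -0.29). The other bases then had 414 higher and 321 lower with MnCl2 (median 0.11). Within G the median with MnCl2 was -0.77 after G and -0.18 after A.

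**Figure D5:**
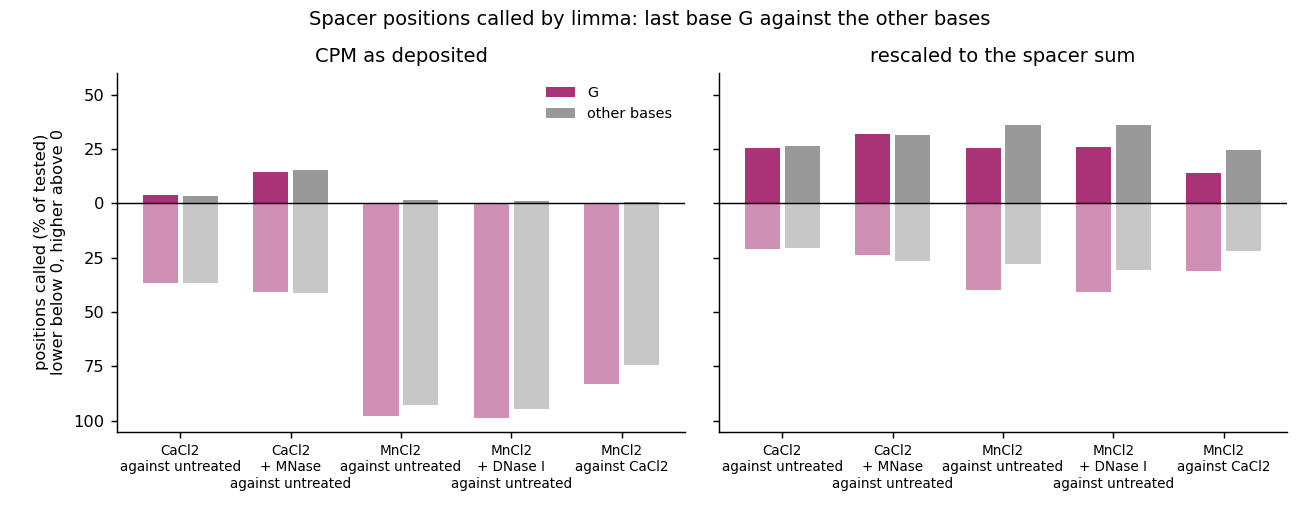
Percent of tested spacer positions called by limma at an adjusted p-value under 0.05 (y axis, higher above 0 in full colour, lower below 0 in pale colour) for G and for the other bases together, in 5 comparisons, with CPM as deposited and after rescaling each library to its spacer sum without the end stretches. As deposited, 97.7% of G and 92.8% of the other positions are lower with MnCl2, and after rescaling 39.9% of G and 28.0% of the others are.

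At the named positions, chosen for their untreated level or their change in these same libraries, the falls with MnCl2 were large. Position 336 had 3.17, 4.35 and 4.65 CPM (9, 18 and 22 reads; log2 change -7.21 ± 0.16, limma adjusted p = 6.71e-12), and position 163 had 1.76, 2.18 and 1.90 CPM (-7.16 ± 0.15, adjusted p = 5.63e-12). These were the largest falls of G positions with MnCl2. Position 98 and position 163 were the largest with MnCl2 + DNase I, and position 98 went from 513, 465 and 421 CPM in untreated libraries to 2.277, 2.73 and 1.82 CPM (-7.16 ± 0.15, limma adjusted p = 3e-12). Position 2617 had 0.35, 0.48 and 0.85 CPM with MnCl2 and position 3150 had 1.41, 1.45 and 1.48 CPM, from 1 to 7 reads per library.

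Position 437 had 11.99, 12.3 and 24.96 CPM with MnCl2 (34, 51 and 118 reads) and 11.7, 15.04 and 16.8 CPM with MnCl2 + DNase I. It stayed among the 3 highest G positions of ETS1 in all 5 groups and at a percentile of 98.86 or more in each library. Most other leading positions were replaced. Some of the new leaders with MnCl2 rested on few reads, such as position 6692 in ETS2 with 13, 9 and 27 reads. The part of depth in this was not tested. Of the 12 G positions that led their spacers with MnCl2 (3 in each), 2 were among the 12 of the untreated libraries and 3 followed a G, while with CaCl2 4 of 12 were the same and 8 followed a G.

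The G that led ETS1 with MnCl2 was position 107 (named, like the others in this paragraph, from its values), with 19.0, 22.5 and 50.6 CPM against 71.9, 31.9 and 59.4 CPM in untreated libraries. The groups overlapped, although the fall was called (log2 change -0.86 ± 0.34, limma adjusted p = 0.0358). In ITS1, position 2737 had 7.05, 6.77 and 8.04 CPM with MnCl2, from 37.0, 35.2 and 42.9 CPM. In ITS2, position 3044 had 19.0, 11.6 and 13.7 CPM with MnCl2 and 22.4, 19.6 and 28.5 CPM in untreated libraries (log2 change -0.64 ± 0.22, limma adjusted p = 0.0166). All 3 leading G positions of ITS2 with MnCl2 (3036, 3040 and 3044) lie shortly behind the end stretch that ends at position 3030.

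Position 2503, the only G in an end stretch, was higher in every treated group. It had 29.5, 24.9 and 31.1 CPM in untreated libraries and 676 to 1091 CPM with MnCl2, where it was the only G position called higher, while with CaCl2 (515 to 1441 CPM) it rose together with 12 others. Leaving out the end stretches changed the G share of ITS1 accordingly: with all positions it was 26.6% ± 0.97 with MnCl2 and 22.2% ± 0.16 in untreated libraries, and without them 10.1% ± 0.54 and 22.5% ± 0.15. In ITS2 the end stretch holds no G, and there the share with MnCl2 went from 3.30% ± 0.42 with all positions to 19.7% ± 1.29 without the stretch. Over the 4 spacers the G share with MnCl2 was 11.8%, 11.7% and 12.5% with all positions, against 26.1% ± 0.29 in untreated libraries.

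Adding a nuclease to its cation gave few calls at G positions. CaCl2 + MNase against CaCl2 gave 0 calls by limma among 343 G positions, where 0 of 6841 positions in all were called (0%), 0 by edgeR, and 16 G positions had an unadjusted p-value under 0.05 (156 over the gene). With 1 library left out the number for G was 6 to 15, except without CaCl2 replicate 3, where it was 122 of 342 with still 0 calls. The number over the gene is not given for these fits. CaCl2 replicate 3 and CaCl2 + MNase replicates 1 and 3 stood apart in the ranks of the bases, so both groups mix libraries of each kind. The part of this in the 0 calls was not tested, and 0 calls do not show that MNase had no effect. The median log2 change was 0.39 for G and 0.25 for the other spacer bases, and after rescaling to the spacer sum it was 0.07 and -0.04. MnCl2 + DNase I against MnCl2 gave 1 call among 319 G positions, where 0.238% of 6725 positions were called (0.0595% higher, 0.178% lower), with a median of -0.13. edgeR also called 1 of these G positions (0.758% of all positions). The call was position 78, a G between U in ETS1, with 14.5, 14.03 and 14.4 CPM with MnCl2 and 5.41, 5.92 and 7.70 CPM with DNase I as well (log2 change -1.07 ± 0.20, limma adjusted p = 0.0345). It was called under 7 of 14 alternatives, with adjusted p-values from 0.0133 to 0.398. In CaCl2 libraries position 78 varied widely (98.4, 129 and 468 CPM), with replicate 3 the highest.

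Set against each other directly, MnCl2 libraries were lower than CaCl2 libraries at 283 of 341 G positions and higher at 0, with a median log2 change of -2.34, where 42.2% of 6836 positions were called (9.54% higher, 32.6% lower). By edgeR on the recovered reads 301 G positions were called there (43.3% of all positions). The other spacer bases had 852 lower and 9 higher of 1146 (74.3% lower, against 83.0% for G; median -1.88). After rescaling to the spacer sum (87.7% of all positions called, 82.4% higher and 5.32% lower), 106 G positions were lower and 48 higher (median -0.44), while the other bases had 249 lower and 281 higher (median -0.03). The median for G after G was -3.09, with 73 of 79 called lower, and position 336 and position 165 had the largest falls (-6.13 ± 0.22, limma adjusted p = 1.46e-06, and -6.05 ± 0.31, limma adjusted p = 9.925e-06). The 2 groups differ in cation, in temperature and in time, and these cannot be told apart.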

How the data were processed

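The deposited values are CPM: per the authors' methods, reads were demultiplexed with bcl2fastq 2.20.00, trimmed with cutadapt 3.4, stripped of PCR duplicates by UMI, aligned with STAR 2.7.1a to R64 and reduced to 3′ ends with SAMtools 1.6 and bedtools 2.28.0, and the count at each position was divided by the 35S total up to T1 (position 6739). These methods were written for the untreated libraries. The authors deposited 7 tables with the replicate values. Their columns of group summaries (mean, median, coefficient of variation, confidence interval) and of comparisons (mean change, ratio, p-value) were not used. Depth was recovered from the steps of the deposited CPM: 99.7% to 99.99% of values were whole reads within 0.1 read, less surely for CaCl2 replicate 3 and CaCl2 + MNase replicate 3. Counts of reads cover counting error only. The G positions and every list were chosen with earlier results of these data known.

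Each comparison was fitted with limma 3.58.1 (R 4.3.3) on log2(CPM + 1) over all 35S positions above 0 in at least 3 of the 6 libraries, two-sided, with Benjamini-Hochberg adjustment over all of them, and called at an adjusted p-value under 0.05. edgeR 4.0.16 on the recovered reads called 2177, 3733, 5001 and 5198 positions of the whole gene in the 4 comparisons with untreated libraries, 128, 190, 336 and 338 of them G positions. Shares and percentiles were computed with Python 3.11.15, pandas 2.3.3 and numpy 2.4.6. Fits were also run on simulated counts with known changes, but with the same dispersion at all positions and no split among libraries. Named positions are the 3 highest G per spacer in untreated libraries, up to 2 called G per direction with the largest change in each comparison among groups that do not overlap, and G in end stretches. A set cutoff on every correlation of deviations counted libraries as paired by replicate number only between MnCl2 and CaCl2 (0.148, 0.214 and 0.114). The correlations were -0.376, 0.383 and 0.468 for CaCl2 + MNase against CaCl2. For MnCl2 + DNase I against MnCl2 they were 0.044, 0.089 and 0.098, and there all 6 libraries matched best with their own number. The pairing of MnCl2 with CaCl2 rests on the data, and the fit with the replicate block called 305 G positions in that comparison against 283. The share over all positions is not given for the block fit. Alternatives were the filter, the pseudocount, the scaling, edgeR, 1 fit of all 15 libraries, the block and each library left out.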

Additional observations from a re-analysis of the deposited data

How the results depend on the processing

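Counts of called G positions ranged, with 1 library left out, from 85 to 238 (CaCl2 against untreated), 140 to 224 (CaCl2 + MNase), 318 to 336 (MnCl2), 321 to 335 (MnCl2 + DNase I), 221 to 303 (MnCl2 against CaCl2) and 0 to 3 (MnCl2 + DNase I against MnCl2). The single call of MnCl2 + DNase I against MnCl2 became 0 with no filter, with all 15 libraries in one fit and with the replicate block; rescaling to the spacer sum gave 154 for MnCl2 against CaCl2. With the replicate block the other counts were 131, 184, 336 and 340 against untreated libraries, where the numbers do not pair the libraries. The shares over all positions are not given for the fits with a library left out or with the block. Those counts thus show how stable the calls were and say nothing particular to G.

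The G share of spacer signal is given for the untreated libraries first, then for both groups with CaCl2 and both with MnCl2, each cation alone before its nuclease. It was 27.5%, 30.7%, 31.9%, 17.2% and 17.6% without end stretches. With end stretches included, it was 20.5%, 22.5%, 24.8%, 14.6% and 14.6% with equal weight of the spacers. Also with them included, it was 25.6%, 26.7%, 27.9%, 7.56% and 7.96% without the highest G and the highest other position of each spacer. At untreated spacer weights, an alternative chosen after seeing the data, it was 30.3%, 32.2%, 21.7% and 22.1% in the treated groups, and without end stretches 27.5%, 31.5%, 33.4%, 22.1% and 22.8%. Over all positions, end stretches included, it was 26.0% to 26.3%, 27.4% to 28.6%, 29.5% to 30.2%, 11.7% to 12.2% and 11.5% to 12.5% with 1 library left out. The median percentile of G was 55.7, 57.0, 59.7, 51.6 and 49.1, and the mean with MnCl2 + DNase I was 50.4 without end stretches. The G share of the top 2.5% was 30.6%, 36.0%, 34.2%, 12.6% and 13.5% without end stretches. With all positions, the top 5% gave 28.4%, 11.1% and 10.7% with CaCl2, MnCl2 and MnCl2 + DNase I, and the top 10%, also with all positions, 30.9%, 17.1% and 15.8%.

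Of the log2 changes at named positions under alternatives, 878 kept direction and side of the threshold, 33 were no longer called, 5 became called and 8 turned direction. The last were uncalled at first: position 437 with CaCl2 (0.92 rescaled, 0.013 without untreated replicate 1, and -0.12 to 0.049 over all libraries left out, the latter without CaCl2 replicate 1), 6669 with CaCl2 (from -0.24 without CaCl2 replicate 3 to 0.86 without replicate 2), 6684 with CaCl2 (0.081 rescaled) and 6684 with CaCl2 + MNase (0.54 rescaled, 0.015 without untreated replicate 1, and from -0.13 without CaCl2 + MNase replicate 3 to 0.12 without replicate 2). Apart from fewer libraries and the changed scale, the cause was not tested. Depth limits the groups with MnCl2 most, since a median G position had 4 to 8 reads there.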
